A study of Mus musculus with 6 samples.

Results

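The contractile apparatus of vascular smooth muscle cells, the muscle cells of the artery wall, was described through a list of 46 genes that encode its actins, myosins, actin-binding proteins and the SRF and myocardin family of transcriptional regulators. The members were taken by gene symbol, and all listed transcripts of a gene were summed. Of the 46 genes, 44 had rows among the 11808 genes of the deposited table, through 151 transcripts. Myocd and Pln had no row and were not analysed here. Casq2 lay below the level tested, which left 43 members among 10854 tested genes.

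Primary vascular smooth muscle cells were isolated from wild-type male C57BL/6 mice by collagenase digestion and kept in growth medium with serum. The labels read as 12 mice of 6 weeks and do not say whether their cells were pooled. Cells received siRNA against Sirt7 (siSirt7) or a scrambled siRNA (siScrambled) at 20 nM with a lipid reagent, RNA was taken at 48 h, and 3 libraries per group were made with an mRNA kit. Both groups were transfected, no untransfected cells are among the samples, and the sources used here give neither the siRNA sequences nor the number of different siRNAs. Values are FPKM, read pairs or reads scaled to transcript length and library size, so levels of different genes can be set side by side per length. Separate isolations behind the libraries are not stated in the labels, and p-values then measure only the scatter of these 3 and 3 libraries, which may be technical.

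Smooth muscle contracts when calcium-bound calmodulin activates myosin light chain kinase, which phosphorylates the regulatory light chain of myosin on actin filaments lined by tropomyosin, calponin and caldesmon. Myosin phosphatase reverses that step, and the kinase ROCK restrains the phosphatase. Many of the genes that encode these proteins carry CArG boxes, to which SRF binds with myocardin or with the myocardin-related factors Mkl1 and Mkl2, and smooth muscle cells in culture are known to lower this programme when they divide.

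The targeted gene checked the labels. Sirt7, a nuclear NAD-dependent deacylase, had 0.959, 1.25 and 0.360 FPKM in siSirt7 libraries, against 4.35, 3.56 and 4.48 FPKM in siScrambled libraries, and the groups did not overlap (log2 fold change -1.49 ± 0.20 SE, limma adjusted p = 0.00388). No library stood apart: gene values correlated at 0.983 to 0.985 within groups and 0.970 to 0.972 between them (Pearson's r of log2 values across tested genes, which are not independent). Library sums lay between 321943.9 and 333682.9 FPKM in siSirt7 cells and between 323114.0 and 325278.7 FPKM in siScrambled cells. Read depth is unknown. Of 9 smooth muscle markers, 8 had rows, from the scarce Synpo2 to Tagln and Acta2, which make up most of their sum. The 8 summed to 2440.0 to 2647.4 FPKM in siSirt7 libraries, against 2778.6 to 2818.6 FPKM in siScrambled libraries. At a limma adjusted p under 0.05, 3 were lower (Cnn1, Smtn and Tagln) and 5, Acta2 among them, were not called. The shares over all tested genes were 12.5% lower and 12.7% higher. None of 7 endothelial markers had a row. In RNA from whole cultures, fewer cells of a type and less RNA per cell cannot be told apart.

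Contractile genes moved both ways after Sirt7 siRNA, more of them down than up. Of the 43 tested members, 15 were lower, 6 were higher and 22 were not called at a limma adjusted p under 0.05. Over all tested genes 25.2% were called, 12.5% lower and 12.7% higher. The share of members called lower, 34.9%, was above that background, and the share called higher, 14.0%, was near it. Leaving out a single library gave 3 higher members without siSirt7 2 or without any 1 of the 3 siScrambled libraries, 5 without siSirt7 1 and 7 without siSirt7 3, while 12 to 15 members were lower. The groups of 3 libraries did not overlap in 30 members (69.8%), 22 of them lower and 8 higher in siSirt7 cells. Of all 10854 tested genes, 43.9% did not overlap, 2402 of them lower and 2368 higher. The median log2 fold change of the members was -0.12, against -0.005 over all tested genes (log2(FPKM + 1) scale, which understates the change of low genes). By role, 5 of 14 actin and thin filament genes were lower and 4 higher. Of 10 myosin genes, 4 were lower and 2 higher. Of 14 genes for actin anchors and LIM proteins, 6 were lower and 0 higher. Neither intermediate filament gene and none of the 3 tested transcriptional regulators was called.

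**Figure D1:**
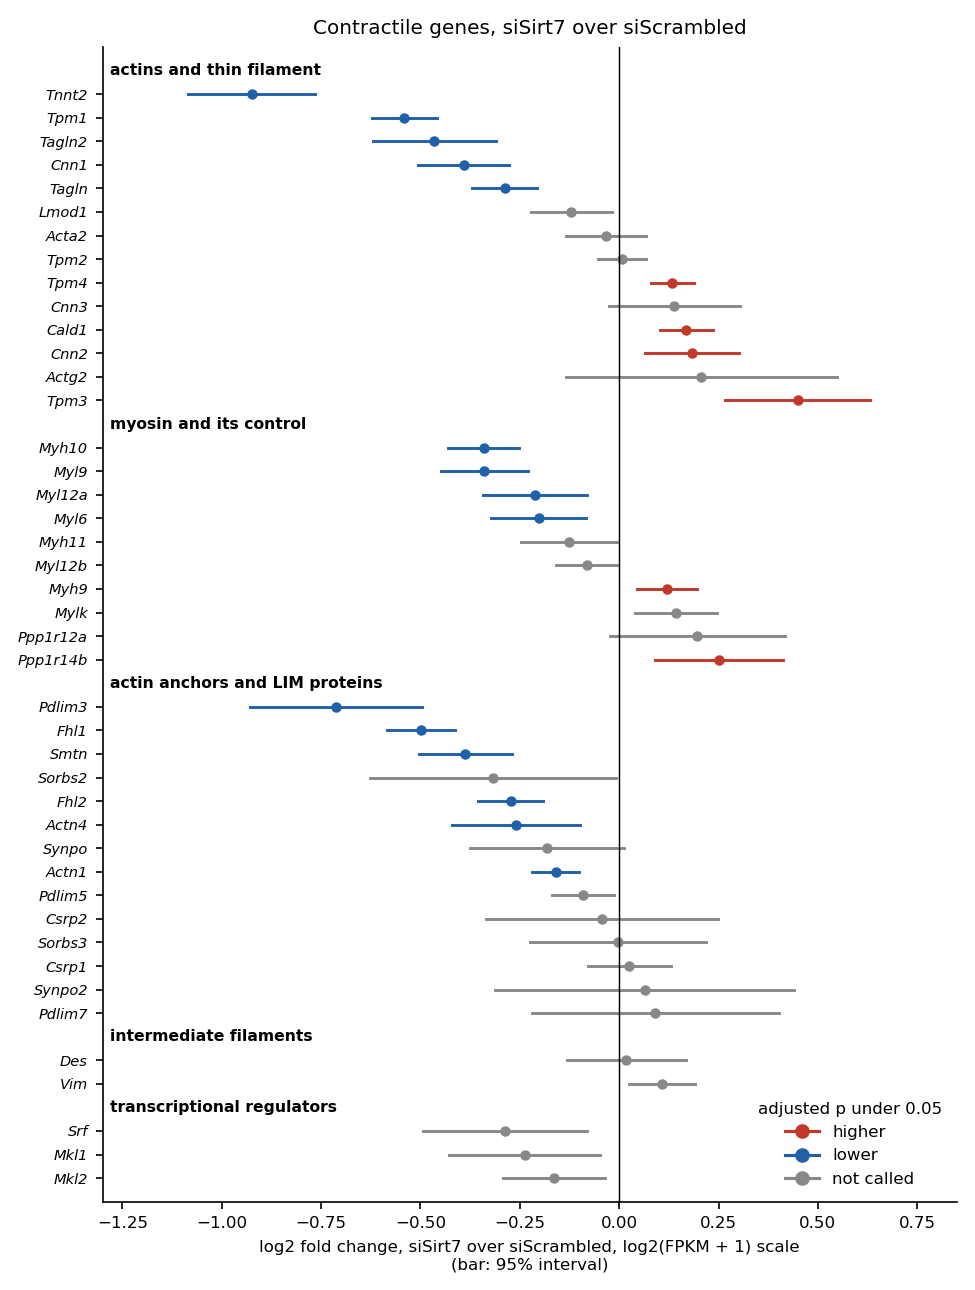
Log2 fold change of each of the 43 tested members, siSirt7 over siScrambled, grouped by role, with 95% intervals (bars) and colour for the limma call. The largest falls are those of Tnnt2 (-0.93) and Pdlim3 (-0.71), the largest rise is that of Tpm3 (0.45), and Acta2 (-0.03) and Tpm2 (0.01) lie near 0.

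CArG boxes are shown for the members whose RefSeq promoters (GRCm38.p6, 250 bases before to 50 after the annotated start) hold the exact motif, since such boxes are the known hallmark of this gene class. The motif is CC, then 6 letters that are each A or T, then GG, and it reads the same way on both strands. It was found in 6 of 39 members matched to a promoter (15.4%), against 1.81% of 27025 genes with one. Tagln, Myh11, Actg2, Synpo, Sorbs3, Csrp2 and Myocd were matched to no promoter and so were not searched. The list includes genes named for their link to SRF, so this share is no independent evidence of that link. Windows of 50 bases are printed on the strand of the gene, with the box in capitals. The pair of Srf boxes lie beside each other and their windows overlap.

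Fhl1, chrX:56779561-56779610, plus strand, box 102 bases before the start: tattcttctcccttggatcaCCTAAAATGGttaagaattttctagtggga
Fhl2, chr1:43196828-43196877, minus strand, box 96 bases before the start: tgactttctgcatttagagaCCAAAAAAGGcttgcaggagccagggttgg
Fhl2, chr1:43163963-43164012, minus strand, box 31 bases before the start: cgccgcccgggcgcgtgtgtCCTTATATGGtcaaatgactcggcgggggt
Myl6, chr10:128493030-128493079, minus strand, box 50 bases before the start: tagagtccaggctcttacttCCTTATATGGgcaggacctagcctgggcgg
Myl9, chr2:156775283-156775332, plus strand, box 161 bases before the start: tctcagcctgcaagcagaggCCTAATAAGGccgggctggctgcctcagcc
Cnn2, chr10:79988524-79988573, plus strand, box 56 bases before the start: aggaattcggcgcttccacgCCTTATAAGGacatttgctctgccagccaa
Srf, chr17:46556215-46556264, minus strand, box 82 bases before the start: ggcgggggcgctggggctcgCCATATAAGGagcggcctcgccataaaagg
Srf, chr17:46556195-46556244, minus strand, box 62 bases before the start: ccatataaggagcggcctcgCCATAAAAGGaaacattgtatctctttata
Acta2, chr19:34255428-34255477, minus strand, box 84 bases before the start: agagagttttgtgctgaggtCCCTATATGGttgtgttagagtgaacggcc

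The Acta2 window is added because the box shown, with 1 C in the core, misses the exact motif while the gene is the standard marker of these cells. A further Acta2 box, 34 bases before the start and not printed, has 1 G in the core. Of the 6 genes with an exact box, 4 were lower (Fhl1, Fhl2, Myl6 and Myl9), 1 was higher (Cnn2) and Srf was not called, with a median log2 fold change of -0.28. Of the other 31 tested members with a matched promoter, 10 were lower and 5 higher, with a median of -0.08. Over all tested genes, 12.5% were lower and 12.7% higher, and calls among all genes with a box are not given here. Whether the boxes play a part in the fold changes was not tested. With up to 1 G or C allowed in the core, 12 members (30.8%) held a box, against 11.3% of all genes. The box does not always lie at the start of the transcripts listed. The Myl6 window spans 128492960 to 128493259 on chromosome 10, while every listed Myl6 transcript starts between 128493847 and 128493875, where the matching RefSeq promoter holds no exact box. The Fhl1 box lies near the starts of Fhl1-202 and Fhl1-204, which were not called (limma adjusted p = 0.307 and 0.98), and not near that of Fhl1-201, the only Fhl1 transcript called. A box is a match of letters in this window and not a measured binding site.

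A second set of sequences comes from the 3' untranslated regions of the members' most abundant transcripts (GENCODE vM21, GRCm38). They hold ATATGTA or TATGTAA, words that earlier work on these data had tied to lower values, so the fold changes here are no independent support for that link. Either word was present in 7 of 40 matched members (17.5%), against 22.9% of all matched genes, and each line shows the word in capitals with up to 10 bases on either side, written as DNA on the strand of the gene. The 2 words can overlap, as they do in Pdlim3 and at 1 of the Tpm1 sites.

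Tpm1, chr9:67022673-67022700, minus strand, 669 bases after the stop codon: taggcactacATATGTAAttggtaaaga
Tpm1, chr9:67022630-67022656, minus strand, 713 bases after the stop codon: gagttataacTATGTAAacattgtata
Tagln2, chr1:172506743-172506769, plus strand, 45 bases after the stop codon: tggttaatatATATGTAtatatatgtt
Pdlim3, chr8:45919306-45919333, plus strand, 302 bases after the stop codon: cagccatctgATATGTAAatacctggat
Cnn1, chr9:22108776-22108802, plus strand, 555 bases after the stop codon: atcctcccatATATGTAggaggtatac
Cnn1, chr9:22108979-22109005, plus strand, 758 bases after the stop codon: ccttccttaaATATGTAtttaaaaaaa
Fhl2, chr1:43123127-43123153, minus strand, 371 bases after the stop codon: acttccttttTATGTAAaacctagagg
Des, chr1:75368558-75368579, plus strand, 1518 bases after the stop codon: attgaataaaATATGTAtatgt
Synpo2, chr3:123112070-123112096, minus strand, 316 bases after the stop codon: acacagccttTATGTAAtacaccagct

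Of the 7 members with a word, 5 were lower and 0 higher (median log2 fold change -0.39), and Des and Synpo2 were not called. These calls are for summed genes, while the words were read in the most abundant transcript. That of Synpo2, Synpo2-207, was higher in siSirt7 cells without overlap, at 1.61, 1.55 and 1.98 FPKM in siSirt7 libraries, against 0.679, 0.618 and 0.845 FPKM in siScrambled libraries. Among all transcripts it was not called (log2 fold change 0.66, limma adjusted p = 0.062), but with each gene taken by its most abundant transcript it passed as higher (limma adjusted p = 0.0165). Synpo2 has 2 further sites that are not printed. Of the 33 matched members with neither word, 10 were lower and 5 higher (median -0.08). Over all tested genes, 25.4% of those with a word were lower and 7.02% higher (median -0.11), while 9.01% of those with neither were lower and 14.8% higher (median 0.03). Untranslated regions with a word were longer over all genes (median 2128.5 bases, against 799 bases without one) but near in length among members (769 bases, against 754 bases). Whether the words play a part in the fold changes was not tested.

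Tropomyosins, the coiled-coil proteins that lie along actin filaments and gate myosin's access to them, moved in both directions. Tpm1, which with Tpm2 gives the long forms, fell, Tpm3 and Tpm4, listed here almost wholly as short forms, rose, and Tpm2 was not called. Tpm1 (chromosome 9, 67022590 to 67049406, minus strand) had 493, 474 and 501 FPKM in siSirt7 libraries, against 713, 691 and 733 FPKM in siScrambled libraries. All 3 siSirt7 libraries lay below every siScrambled library, and Tpm1 fell by 31.3% (log2 fold change -0.54 ± 0.03 SE, limma adjusted p = 0.000323). Both printed Tpm1 sites lie in this gene's main transcript. Tpm3 (chromosome 3, 90079540 to 90100901, plus strand) had 199.7, 190.4 and 189.8 FPKM in siSirt7 libraries, against 150.2, 125 and 149.7 FPKM in siScrambled libraries, without overlap between groups (log2 fold change 0.45 ± 0.08 SE, limma adjusted p = 0.0083). Tpm4 (chromosome 8, 72135259 to 72153142, plus strand) had 850.4, 847 and 832 FPKM in siSirt7 libraries, against 776, 767 and 763 FPKM in siScrambled libraries, again without overlap, for a rise of 9.71% (log2 fold change 0.13 ± 0.02 SE, limma adjusted p = 0.00788). Its call was lost in limma without the trend and robust options (adjusted p = 0.0728). Tpm2 (chromosome 4, 43514711 to 43523765, minus strand) had 746, 726 and 717 FPKM in siSirt7 libraries, against 720.0, 726 and 732 FPKM in siScrambled libraries, and the groups overlapped (log2 fold change 0.01 ± 0.03 SE, limma adjusted p = 0.868). The 95% interval of its log2 fold change, -0.05 to 0.07, leaves out a change of the size seen in Tpm1, Tpm3 or Tpm4.

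**Figure D2:**
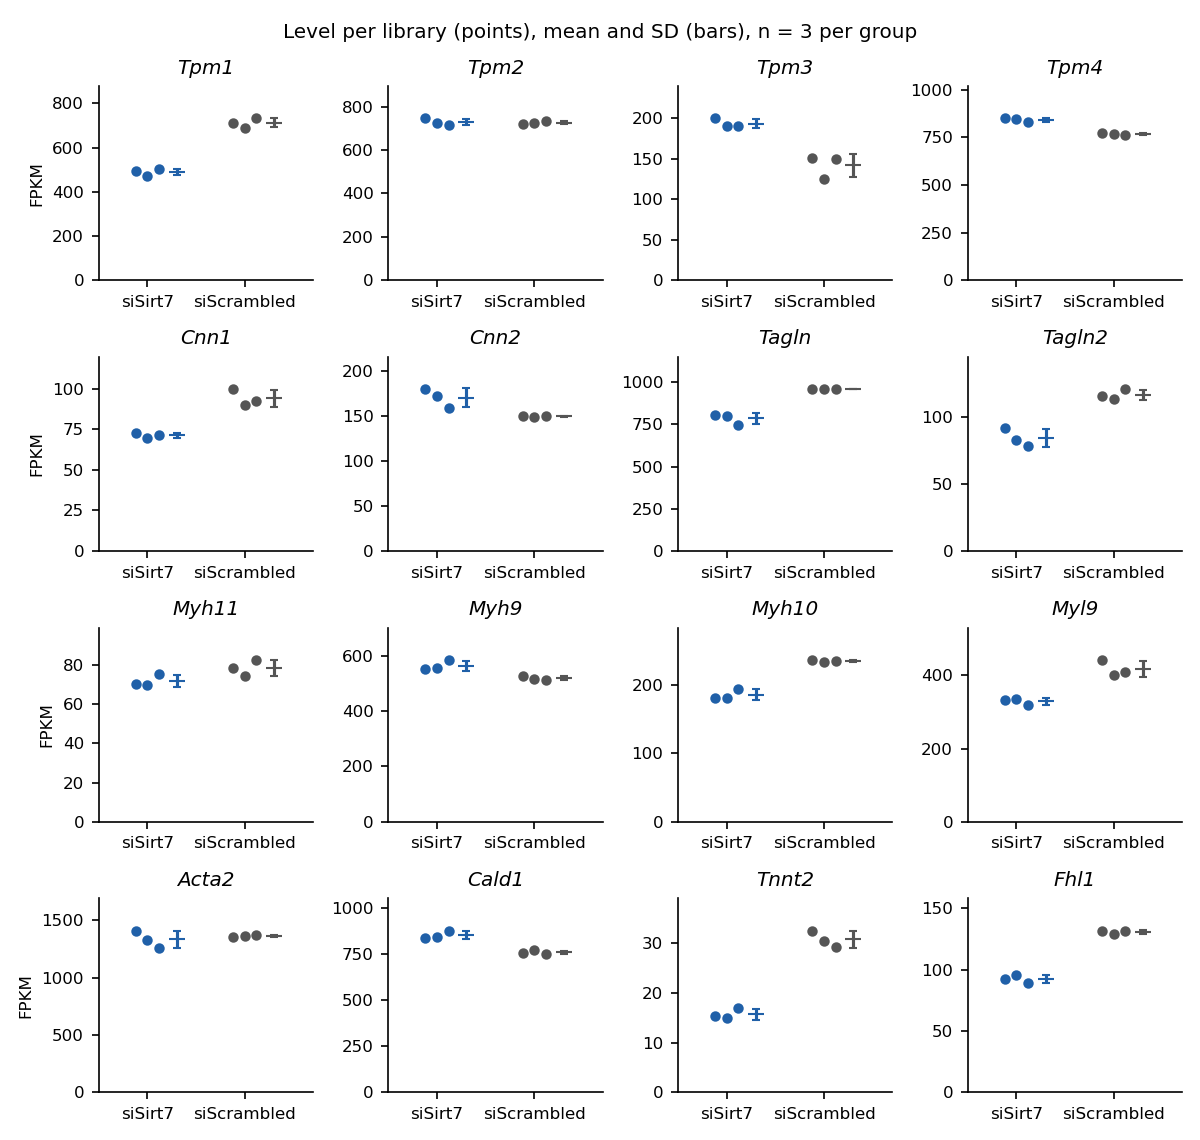
FPKM per library (points) with mean and SD (bars, n = 3 per group) for 16 members, siSirt7 left of siScrambled, each axis starting at 0. Tpm1, Cnn1, Tagln, Tagln2, Myh10, Myl9, Tnnt2 and Fhl1 are lower in all 3 siSirt7 libraries, Tpm3, Tpm4, Cnn2, Myh9 and Cald1 are higher, and Acta2, Tpm2 and Myh11 overlap.

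Summed by the length of the encoded protein, the sum of long tropomyosin forms was lower and that of short forms higher in siSirt7 cells. Transcripts that encode 281 to 326 residues (13 transcripts of Tpm1 and Tpm2) summed to 1202.3, 1167.8 and 1177.1 FPKM in siSirt7 libraries, against 1396.2, 1380.5 and 1418.4 FPKM in siScrambled libraries. Transcripts that encode 245 to 251 residues (10 transcripts of Tpm1, Tpm3 and Tpm4) summed to 1082.9, 1061.2 and 1058.1 FPKM in siSirt7 libraries, against 958.8, 925.1 and 955.5 FPKM in siScrambled libraries. The short forms thus made up 47.4 ± 0.14% of the 2 classes in siSirt7 cells and 40.4 ± 0.31% in siScrambled cells (SD, n = 3 each). The groups did not overlap, and the exact two-sided permutation test gave p = 0.10, the smallest that 3 against 3 libraries allow. The 2 classes were set after the values were seen. Within Tpm1, the most abundant transcript, Tpm1-215 (284 residues), fell to 209 ± 5.53 FPKM in siSirt7 cells, against 330.0 ± 3.73 FPKM in siScrambled cells (log2 fold change -0.66, limma adjusted p = 0.000462). Tpm1-202, which encodes the longest form (326 residues), fell to 72.0 ± 6.93 FPKM in siSirt7 cells, against 111 ± 3.47 FPKM in siScrambled cells (log2 fold change -0.62, limma adjusted p = 0.00971). The short Tpm1-209 (245 residues) also fell (log2 fold change -0.46, limma adjusted p = 0.0435). The scarce Tpm1-207 (287 residues) rose to 5.80 ± 1.98 FPKM in siSirt7 cells, against 1.79 ± 0.212 FPKM in siScrambled cells (log2 fold change 1.24, limma adjusted p = 0.0377). The other short Tpm1 transcripts were not called or lay below the level tested, and the 2 transcripts for 245 residues together overlapped between groups, at 18.9, 19.2 and 29.6 FPKM in siSirt7 libraries, against 30.4, 30.2 and 23.7 FPKM in siScrambled libraries. In Tpm2, the minor 284-residue transcript Tpm2-202 rose to 29.2 ± 1.14 FPKM in siSirt7 cells, against 24.1 ± 1.01 FPKM in siScrambled cells (log2 fold change 0.27, limma adjusted p = 0.0341), while all 3 of its 284-residue transcripts together had 727 ± 15.8 FPKM in siSirt7 cells and 725 ± 6.21 FPKM in siScrambled cells (SD, n = 3 each).

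**Figure D3:**
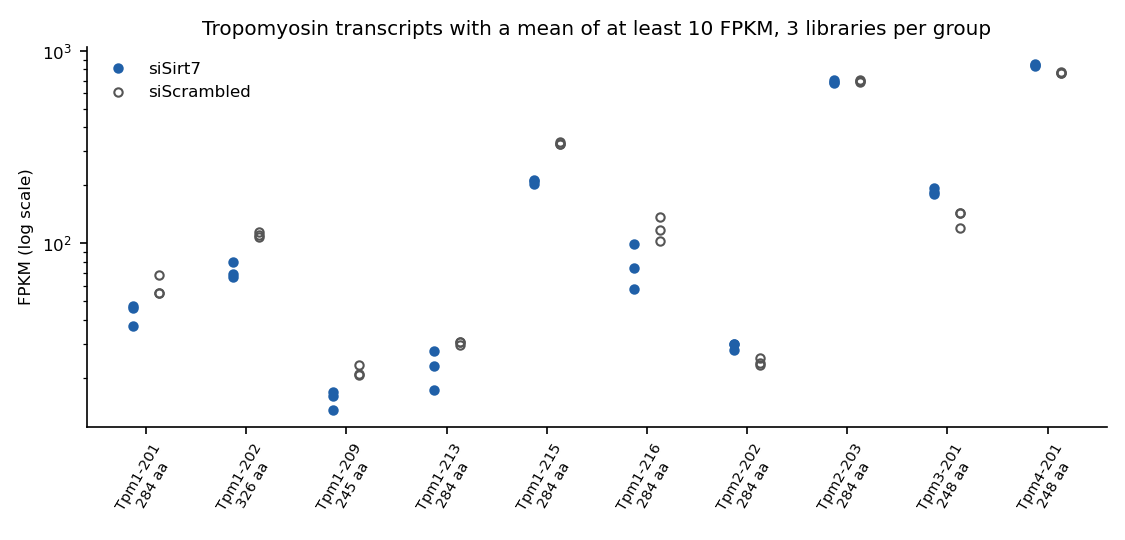
FPKM (log axis) of the tropomyosin transcripts with a mean of at least 10 FPKM, siSirt7 (filled) left of siScrambled (open), 3 libraries each, with the number of encoded residues under each name. Every Tpm1 transcript shown is lower in siSirt7 cells, the 248-residue transcripts of Tpm3 and Tpm4 are higher, and the points of the main Tpm2 transcript overlap.

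Calponins and transgelins are related actin-binding proteins, and calponin-1 and transgelin mark differentiated smooth muscle. Both marker genes fell. Cnn1 (chromosome 9, 22099216 to 22109630, plus strand) had 72.8, 69.7 and 71.7 FPKM in siSirt7 libraries, against 99.8, 89.7 and 92.6 FPKM in siScrambled libraries, without overlap (log2 fold change -0.39 ± 0.05 SE, limma adjusted p = 0.00259). Cnn2 (chromosome 10, 79988584 to 79996062, plus strand), the calponin of many non-muscle cells, had 180.3, 173 and 159 FPKM in siSirt7 libraries, against 150.4, 149 and 150.4 FPKM in siScrambled libraries, with siSirt7 cells higher (log2 fold change 0.18 ± 0.05 SE, limma adjusted p = 0.0398). The Cnn2 call was weak: the limma adjusted p was 0.0767 without siSirt7 1, 0.108 without siSirt7 2 or siScrambled 2, and 0.101 without siScrambled 1 or siScrambled 3. Cnn3, the acidic calponin, was not called (log2 fold change 0.14, limma adjusted p = 0.193). Tagln (chromosome 9, 45929619 to 45936058, minus strand), among the most abundant messages of these cells, had 806, 800.3 and 748 FPKM in siSirt7 libraries, against 959, 958 and 957 FPKM in siScrambled libraries, and fell by 18.1% (log2 fold change -0.29 ± 0.03 SE, limma adjusted p = 0.00243). Tagln2 (chromosome 1, 172500047 to 172507380, plus strand), its more widely expressed relative, had 91.8, 82.4 and 78.1 FPKM in siSirt7 libraries, against 115, 113 and 120.4 FPKM in siScrambled libraries, and fell further, by 27.6% (log2 fold change -0.47 ± 0.06 SE, limma adjusted p = 0.00413). Cnn1, Tagln and Tagln2 were called under each of the 15 alternative settings tried, single libraries left out among them.

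Caldesmon, which inhibits the actomyosin ATPase, rose where Cnn1, Tagln and Tpm1 fell. Cald1 (chromosome 6, 34598500 to 34775473, plus strand) had 841, 845 and 879 FPKM in siSirt7 libraries, against 758, 772 and 751 FPKM in siScrambled libraries, with siSirt7 cells higher in every library (log2 fold change 0.17 ± 0.03 SE, limma adjusted p = 0.00697). Cald1-205, the only listed transcript for the 768-residue protein, the size of the smooth muscle heavy form, had 124 ± 4.11 FPKM in siSirt7 cells and 111 ± 9.94 FPKM in siScrambled cells (SD, n = 3 each; limma adjusted p = 0.247). It was not called on its own, nor was the most abundant transcript, Cald1-211 (limma adjusted p = 0.0845), which is listed with an incomplete coding sequence. The 5 such transcripts made up 55.8 to 60.5% of summed Cald1 FPKM in siSirt7 libraries and 56.6 to 59.5% in siScrambled libraries. The single Cald1 transcript called was Cald1-212, listed with an incomplete coding sequence, which rose to 67.2 ± 6.29 FPKM in siSirt7 cells, against 48.9 ± 3.93 FPKM in siScrambled cells (log2 fold change 0.45, limma adjusted p = 0.0411). Tnnt2 (chromosome 1, 135836354 to 135852260, plus strand), the troponin T of heart muscle, had the largest fall of all members. Its level was 15.3, 14.9 and 16.9 FPKM in siSirt7 libraries, against 32.5, 30.4 and 29.3 FPKM in siScrambled libraries, and it fell by 48.9% (log2 fold change -0.93 ± 0.07 SE, limma adjusted p = 0.000448). Beside it, 2 of 8 skeletal and cardiac muscle markers had rows, Acta1 and Myh1, which summed to 4.85 to 5.63 FPKM in siSirt7 libraries and 3.25 to 5.10 FPKM in siScrambled libraries, and Acta1 was not called while Myh1 lay below the level tested.

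Neither smooth muscle actin was called. Acta2 (chromosome 19, 34241090 to 34255336, minus strand), smooth muscle alpha-actin and the most abundant member, had 1409, 1329 and 1260.4 FPKM in siSirt7 libraries, against 1356, 1364 and 1367 FPKM in siScrambled libraries. The siSirt7 libraries spread on both sides of the tight siScrambled values (log2 fold change -0.03 ± 0.04 SE, limma adjusted p = 0.603), and the 95% interval of the log2 fold change was -0.13 to 0.07. Actg2, the enteric smooth muscle actin, had 99.6, 73.4 and 88.0 FPKM in siSirt7 libraries, against 71.0, 67.1 and 87.4 FPKM in siScrambled libraries, and the groups overlapped (log2 fold change 0.21 ± 0.14 SE, limma adjusted p = 0.338). Actin genes are near copies of each other, and the sources used here do not say how reads shared between them were assigned. Lmod1, a nucleator of smooth muscle actin filaments, had 63.6, 62.8 and 63.9 FPKM in siSirt7 libraries, against 67.4, 66.9 and 72.9 FPKM in siScrambled libraries. Its groups did not overlap, yet it missed the threshold (log2 fold change -0.12 ± 0.04 SE, limma adjusted p = 0.0854).

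Myosin heavy chains shifted between non-muscle paralogs. Smooth muscle myosin Myh11 (chromosome 16, 14194527 to 14291408, minus strand) had 70.6, 70.1 and 75.4 FPKM in siSirt7 libraries, against 78.7, 74.7 and 82.7 FPKM in siScrambled libraries. The highest siSirt7 library lay above the lowest siScrambled library, and it was not called (log2 fold change -0.13 ± 0.05 SE, limma adjusted p = 0.122). Non-muscle myosin IIB, Myh10 (chromosome 11, 68691915 to 68816632, plus strand), had 181, 182 and 195 FPKM in siSirt7 libraries, against 237, 234 and 236 FPKM in siScrambled libraries, and fell by 21.1% with no overlap (log2 fold change -0.34 ± 0.04 SE, limma adjusted p = 0.00181). Taken by its most abundant transcript alone, Myh10 missed the threshold (limma adjusted p = 0.0852). Non-muscle myosin IIA, Myh9 (chromosome 15, 77760587 to 77842175, minus strand), was the most abundant heavy chain and had 550.3, 556 and 584 FPKM in siSirt7 libraries, against 527, 516 and 512 FPKM in siScrambled libraries, with siSirt7 cells higher (log2 fold change 0.12 ± 0.03 SE, limma adjusted p = 0.0361). The Myh9 call was lost without siSirt7 2 (limma adjusted p = 0.075), siScrambled 1 (0.0743), siScrambled 2 (0.109) or siScrambled 3 (0.115).

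Of the 4 light chain genes, 3 were lower, while the kinase and the targeting subunit of the phosphatase were not called. Myl9 (chromosome 2, 156775420 to 156781658, plus strand), the regulatory light chain of smooth muscle, had 333, 336 and 319 FPKM in siSirt7 libraries, against 442, 400.2 and 408 FPKM in siScrambled libraries, without overlap (log2 fold change -0.34 ± 0.05 SE, limma adjusted p = 0.00374). Its promoter is among the boxes printed above, and it was called under each of the 15 alternatives. Myl12a, a non-muscle regulatory light chain, fell by 13.8% (log2 fold change -0.21 ± 0.05 SE, limma adjusted p = 0.0342), and Myl6, the essential light chain, by 13.1% (log2 fold change -0.20 ± 0.05 SE, limma adjusted p = 0.0291). The Myl12a call was lost without siSirt7 1 (limma adjusted p = 0.0699), siSirt7 2 (0.101), siSirt7 3 (0.0682), siScrambled 1 (0.103) or siScrambled 2 (0.103). The Myl6 call was lost without siSirt7 2 (limma adjusted p = 0.0727), siScrambled 1 (0.0917) or siScrambled 2 (0.0817). Myl12b, the neighbour and near copy of Myl12a on chromosome 17, was not called (log2 fold change -0.08, limma adjusted p = 0.11), and reads of the pair may have been split between them. Mylk, the kinase of the regulatory light chain, had 26.2, 25.8 and 26.1 FPKM in siSirt7 libraries, against 23.7, 22.6 and 24.1 FPKM in siScrambled libraries. Its groups did not overlap, and it just missed the threshold (log2 fold change 0.14 ± 0.04 SE, limma adjusted p = 0.0528). Ppp1r12a, the targeting subunit of myosin phosphatase, overlapped between groups and was not called (log2 fold change 0.20, limma adjusted p = 0.169). Ppp1r14b, an inhibitor of that phosphatase, had 77.2, 67.3 and 65.7 FPKM in siSirt7 libraries, against 60.3, 56.9 and 58.5 FPKM in siScrambled libraries, with siSirt7 cells higher (log2 fold change 0.25 ± 0.07 SE, limma adjusted p = 0.0392). Its call was lost without siSirt7 2 (limma adjusted p = 0.0675), siScrambled 1 (0.0758), siScrambled 2 (0.113) or siScrambled 3 (0.0996).

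Genes that anchor actin filaments or carry LIM domains were called in the lower direction alone, 6 of 14. Pdlim3 (chromosome 8, 45885461 to 45919548, plus strand), a PDZ and LIM protein that binds alpha-actinin, was scarce and had 3.43, 3.96 and 3.97 FPKM in siSirt7 libraries, against 6.18, 7.21 and 7.17 FPKM in siScrambled libraries, and fell by 44.7% (log2 fold change -0.71 ± 0.09 SE, limma adjusted p = 0.003). Fhl1 (chromosome X, 56731787 to 56793346, plus strand), a LIM-only protein of muscle, had 92.3, 95.4 and 88.9 FPKM in siSirt7 libraries, against 132, 129 and 132 FPKM in siScrambled libraries, and fell by 29.5% (log2 fold change -0.50 ± 0.04 SE, limma adjusted p = 0.000431). Its siSirt7 libraries lay far below the siScrambled ones. Fhl2 (chromosome 1, 43123074 to 43196984, minus strand), a LIM-only partner of SRF, had 71.3, 69.5 and 67.0 FPKM in siSirt7 libraries, against 83.5, 83.9 and 84.2 FPKM in siScrambled libraries (log2 fold change -0.27 ± 0.03 SE, limma adjusted p = 0.00284). Both genes carry exact boxes printed above, Fhl2 in each of 2 promoters. As stated there, the Fhl1 box does not lie near the start of the only Fhl1 transcript called. Whether the boxes play a part in these falls was not tested. Smtn (chromosome 11, 3517523 to 3539292, minus strand), smoothelin, a cytoskeletal protein of contractile smooth muscle, had 76.2, 69.0 and 74.6 FPKM in siSirt7 libraries, against 93.8, 94.8 and 99.7 FPKM in siScrambled libraries, without overlap (log2 fold change -0.39 ± 0.05 SE, limma adjusted p = 0.00297). Taken by the most abundant transcript alone, Fhl2 (limma adjusted p = 0.439) and Smtn (0.319) missed the threshold.

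Actn1 (chromosome 12, 80167547 to 80260371, minus strand) and Actn4 encode the alpha-actinins, which crosslink actin at dense bodies and adhesions. Actn1 had 401, 411 and 414 FPKM in siSirt7 libraries, against 457, 455 and 458 FPKM in siScrambled libraries, a small fall with tight groups (log2 fold change -0.16 ± 0.02 SE, limma adjusted p = 0.00582), and missed the threshold by its most abundant transcript alone (limma adjusted p = 0.0587). Actn4 fell by 16.5% (log2 fold change -0.26 ± 0.07 SE, limma adjusted p = 0.0347), a call lost without siSirt7 2 (limma adjusted p = 0.0967), siSirt7 3 (0.0835), siScrambled 1 (0.103) or siScrambled 2 (0.104). The 8 members of this class that were not called were Synpo, Synpo2, Sorbs2, Sorbs3, Pdlim5, Pdlim7, Csrp1 and Csrp2, with log2 fold changes between -0.32 (Sorbs2) and 0.09 (Pdlim7). Among them, the smooth muscle marker Synpo2 was scarce, at 2.30, 1.55 and 2.49 FPKM in siSirt7 libraries, against 2.04, 1.60 and 2.25 FPKM in siScrambled libraries, and its groups overlapped (log2 fold change 0.06 ± 0.16 SE, limma adjusted p = 0.796). The groups of Synpo and Pdlim5 did not overlap, with siSirt7 cells lower in both, but neither passed (limma adjusted p = 0.15 and 0.0922).

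Intermediate filament genes did not follow the marker genes that fell. Desmin (Des), a marker of mature muscle, had 147, 132 and 143 FPKM in siSirt7 libraries, against 144, 129 and 144 FPKM in siScrambled libraries, and the groups overlapped (log2 fold change 0.02 ± 0.06 SE, limma adjusted p = 0.856). Vimentin (Vim), abundant in mesenchymal and cultured cells, had 986, 963 and 910.4 FPKM in siSirt7 libraries, against 878, 878 and 895 FPKM in siScrambled libraries. It was higher in all 3 siSirt7 libraries but missed the threshold (log2 fold change 0.11 ± 0.03 SE, limma adjusted p = 0.0658), and it passed without siSirt7 3 (limma adjusted p = 0.0147).

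The 3 regulators with rows were all measured lower, and as summed genes none passed. Myocd, the other regulator listed, had no row. Srf (chromosome 17, 46546839 to 46556162, minus strand), whose own promoter holds the 2 adjoining boxes printed above, had 9.39, 8.48 and 7.86 FPKM in siSirt7 libraries, against 9.83, 11.3 and 10.9 FPKM in siScrambled libraries (log2 fold change -0.29 ± 0.09 SE, limma adjusted p = 0.0531). Without siSirt7 1 it passed (limma adjusted p = 0.0445). Mkl1, also called Mrtfa, an actin-sensing SRF coactivator, had 12.3, 12.4 and 12.5 FPKM in siSirt7 libraries, against 13.2, 16.0 and 15.5 FPKM in siScrambled libraries (log2 fold change -0.24 ± 0.08 SE, limma adjusted p = 0.0723), and passed without siScrambled 1 (limma adjusted p = 0.0213) or by its most abundant transcript (0.0235). That transcript, Mkl1-201, was also lower among all transcripts (limma adjusted p = 0.0477). Mkl2, also called Mrtfb, had 12.2, 12.6 and 11.9 FPKM in siSirt7 libraries, against 14.2, 13.9 and 13.3 FPKM in siScrambled libraries (log2 fold change -0.17 ± 0.05 SE, limma adjusted p = 0.069). In each of the 3 genes every siSirt7 library lay below every siScrambled library. Groups did not overlap, in either direction, in 43.9% of all tested genes. Casq2, a calcium-binding protein of the sarcoplasmic reticulum, had 0.394, 0.880 and 0.456 FPKM in siSirt7 libraries, against 1.06, 0.865 and 0.880 FPKM in siScrambled libraries, too low for the test.

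Within paralog families, the shares of Myh10, Cnn1 and Tpm1 were smaller in siSirt7 cells and that of Myh9 larger. Among myosin heavy chains, Myh10 made up 22.6 ± 0.17% of the summed FPKM in siSirt7 cells and 28.3 ± 0.13% in siScrambled cells (SD, n = 3 each, as for the other shares). Myh9 made up 68.6 ± 0.23% in siSirt7 cells and 62.2 ± 0.51% in siScrambled cells, and Myh11 8.77 ± 0.08% in siSirt7 cells and 9.46 ± 0.47% in siScrambled cells. Among calponins, Cnn1 made up 19.0 ± 0.93% in siSirt7 cells and 25.7 ± 1.46% in siScrambled cells. Among tropomyosins, Tpm1 made up 21.7 ± 0.62% in siSirt7 cells and 30.3 ± 0.45% in siScrambled cells, and Tpm1 with Tpm2 54.0 ± 0.39% in siSirt7 cells and 61.2 ± 0.45% in siScrambled cells. In transgelins, where both genes fell, the share of Tagln moved little, at 90.3 ± 0.48% in siSirt7 cells and 89.2 ± 0.33% in siScrambled cells. None of these 7 shares overlapped between groups, and each reached the smallest p of the exact two-sided permutation test, 0.10 (0.143 adjusted over the 10 shares computed). The shares of Myh9, Myh10 and Tpm1 were added after the values were seen, and those of a family depend on each other. The other 3 shares overlapped between groups: Myl9 among regulatory light chains was 33.8 ± 1.11% in siSirt7 cells and 36.2 ± 1.52% in siScrambled cells (exact permutation p = 0.20). Actn1 among alpha-actinins was 62.7 ± 2.02% in siSirt7 cells and 61.1 ± 1.56% in siScrambled cells (exact permutation p = 0.20), and Acta2 among 4 actins 48.4 ± 0.68% in siSirt7 cells and 47.7 ± 0.27% in siScrambled cells (exact permutation p = 0.30). Summed over its family, heavy chain RNA was near level, at 801.5 to 854.8 FPKM in siSirt7 libraries and 824.7 to 842.7 FPKM in siScrambled libraries. Regulatory light chain RNA was lower, at 962.9 to 987.8 FPKM in siSirt7 libraries and 1098.1 to 1197.6 FPKM in siScrambled libraries.

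**Figure D4:**
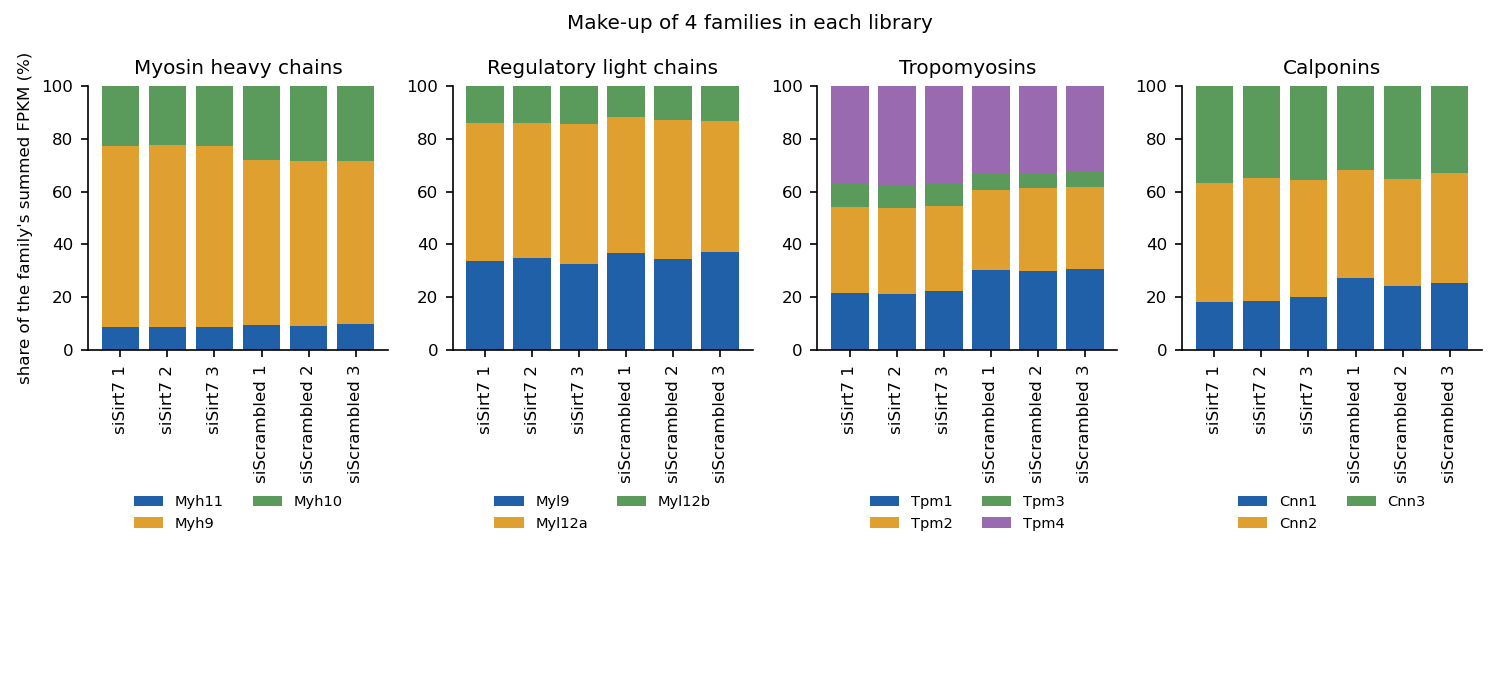
Share (percent) of each paralog in the summed FPKM of its family, per library, siSirt7 libraries left of siScrambled libraries. The Myh10, Tpm1 and Cnn1 segments are smaller in each siSirt7 library, and those of Myh9 and Tpm4 are larger.

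Single transcripts gave fewer calls than summed genes. Of 135 member transcripts tested, 13 were lower and 5 higher, in 15 genes, against a background of 4.31% of all tested transcripts lower and 4.68% higher. Those not yet given include Tnnt2-207 (9.83 ± 2.88 FPKM in siSirt7 cells, against 23.9 ± 1.16 FPKM in siScrambled cells, limma adjusted p = 0.0199), Fhl1-201 (57.3 ± 2.94 FPKM in siSirt7 cells, against 86.4 ± 2.96 FPKM in siScrambled cells, limma adjusted p = 0.00324) and Myl6-206 (281 ± 9.66 FPKM in siSirt7 cells, against 397 ± 15.8 FPKM in siScrambled cells, limma adjusted p = 0.00312), all lower. Actn1-202, which encodes 887 residues, was lower (105 ± 2.91 FPKM in siSirt7 cells, against 133 ± 5.58 FPKM in siScrambled cells, limma adjusted p = 0.01), and Actn1-201, with 892 residues, was not called (log2 fold change -0.09, limma adjusted p = 0.0804). Whether transcripts of a gene moved unequally was asked in 2 ways. With limma's diffSplice, 2 of 121 member transcripts passed, Tnnt2-209 (adjusted p = 0.0202) and Fhl1-201 (adjusted p = 0.0421), and Pdlim5-204 came next (adjusted p = 0.0585). The smallest diffSplice adjusted p of limma was 0.169 for Actn1, 0.182 for Tpm1 and 0.229 for both Sorbs2 and Tagln. With limma on the log ratio of a transcript to the rest of its gene, 0 of 121 passed, with 15 at an unadjusted p under 0.05. The log ratio test also found none of the changes simulated, so its result cannot show that a member's transcripts moved alike. No unequal change of a member's transcripts is stated here, and the question was not decided. Estimates of single transcripts were unstable in places: Smtn-204 was listed at 0 in 5 libraries and at 36.0 FPKM in siScrambled 3. Myh11 and Mylk each had 1 listed transcript, for 1972 and 1950 residues, so their gene values are those of that transcript.

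Genes that act on the apparatus were read from 3 further lists, none of whose tested genes are members. The background for their counts is that given above, 12.5% of all tested genes lower and 12.7% higher. In contraction signalling, 26 of 32 symbols had rows, 25 were tested, and 5 were lower and 5 higher, 20.0% each way. Calm2 and Calm3, which each encode the calcium sensor calmodulin that activates Mylk, moved in opposite directions. Calm2 had 241, 248 and 255 FPKM in siSirt7 libraries, against 425, 403 and 429.8 FPKM in siScrambled libraries (log2 fold change -0.76 ± 0.04 SE, limma adjusted p = 0.000159). Calm3 had 201, 201 and 203 FPKM in siSirt7 libraries, against 171, 169 and 168 FPKM in siScrambled libraries (log2 fold change 0.25 ± 0.03 SE, limma adjusted p = 0.00136). Ppp1cb, the catalytic subunit of myosin phosphatase, had 39.3, 42.3 and 38.0 FPKM in siSirt7 libraries, against 25.6, 27.0 and 26.2 FPKM in siScrambled libraries, with siSirt7 cells higher (log2 fold change 0.58 ± 0.05 SE, limma adjusted p = 0.000886). Ppp1r14a, the phosphatase inhibitor of contractile smooth muscle also called CPI-17, had 25.4, 26.9 and 25.2 FPKM in siSirt7 libraries, against 35.4, 35.3 and 33.9 FPKM in siScrambled libraries, with siSirt7 cells lower (log2 fold change -0.42 ± 0.04 SE, limma adjusted p = 0.00177). It thus moved opposite to Ppp1r14b, given above. The other lower genes were Gucy1b3, Ppp1r12b and Prkg1, and the other higher genes were Pde5a, Itpr2 and Ppp1cc. These genes were named after their values were seen. When a single library was left out, 3 to 5 genes of the list were lower (3 without siSirt7 2, siSirt7 3 or siScrambled 3).

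Of 30 genes of actin dynamics and adhesion, 13 were lower and 5 higher. The share lower was 43.3% and the share higher 16.7%. Among those that fell were the focal adhesion genes Vcl, which links integrins to actin through vinculin, and Zyx, for the tension-sensing protein zyxin. Vcl had 142, 137 and 142 FPKM in siSirt7 libraries, against 219, 216 and 213 FPKM in siScrambled libraries (log2 fold change -0.62 ± 0.03 SE, limma adjusted p = 0.000149). Zyx had 79.2, 80.4 and 85.7 FPKM in siSirt7 libraries, against 133, 123 and 125 FPKM in siScrambled libraries (log2 fold change -0.63 ± 0.05 SE, limma adjusted p = 0.000534). Lpp, a zyxin relative, had 25.5, 25.3 and 26.6 FPKM in siSirt7 libraries, against 37.0, 35.9 and 36.0 FPKM in siScrambled libraries (log2 fold change -0.48 ± 0.04 SE, limma adjusted p = 0.000713), and Diaph3, a formin that builds actin filaments, had 4.68, 4.11 and 4.41 FPKM in siSirt7 libraries, against 8.57, 8.06 and 8.44 FPKM in siScrambled libraries (log2 fold change -0.79 ± 0.07 SE, limma adjusted p = 0.000831). The 5 higher genes were Rock1, Rock2, Limk1, Limk2 and Diaph1, kinases and a formin that regulate actin filaments, named after their values were seen. Their log2 fold changes lay between 0.24 (Limk2) and 0.52 (Limk1). Those rises were weak: 2 genes were higher without siSirt7 1, siSirt7 3 or siScrambled 3, and 1 without siSirt7 2, siScrambled 1 or siScrambled 2.

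Of 23 tested regulators and targets of SRF and its partners (27 listed, 24 with rows), 9 (39.1%) were lower and 0 higher. Egr1, an immediate-early target of SRF, had 16.1, 17.3 and 16.6 FPKM in siSirt7 libraries, against 27.1, 27.3 and 27.1 FPKM in siScrambled libraries (log2 fold change -0.67 ± 0.04 SE, limma adjusted p = 0.000368). Ctgf, a matrix-signalling target of SRF and YAP, had 892, 885 and 858 FPKM in siSirt7 libraries, against 1093, 1129 and 1116 FPKM in siScrambled libraries (log2 fold change -0.34 ± 0.03 SE, limma adjusted p = 0.000554). The ETS-family repressor Elk3 had 9.92, 10.4 and 9.14 FPKM in siSirt7 libraries, against 16.2, 14.8 and 15.2 FPKM in siScrambled libraries (log2 fold change -0.60 ± 0.07 SE, limma adjusted p = 0.00194), and Klf4, a repressor of contractile genes, had 19.1, 18.3 and 21.7 FPKM in siSirt7 libraries, against 28.0, 28.5 and 29.9 FPKM in siScrambled libraries (log2 fold change -0.53 ± 0.07 SE, limma adjusted p = 0.00361). Groups did not overlap in any of these 4 genes. The other lower genes were Ankrd1, Cyr61, Ier2, Hdac4 and Hdac9. The early genes Fos, Fosb and Junb were not called (log2 fold change 0.08, 0.06 and 0.06, limma adjusted p = 0.515, 0.817 and 0.386). These further genes were named after their values were seen. So the list held falls of some SRF targets, but not of all, beside falls of the repressors Elk3 and Klf4, the latter a repressor of the contractile genes. With single libraries left out, 7 to 9 genes were lower and 0 higher.

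**Figure D5:**
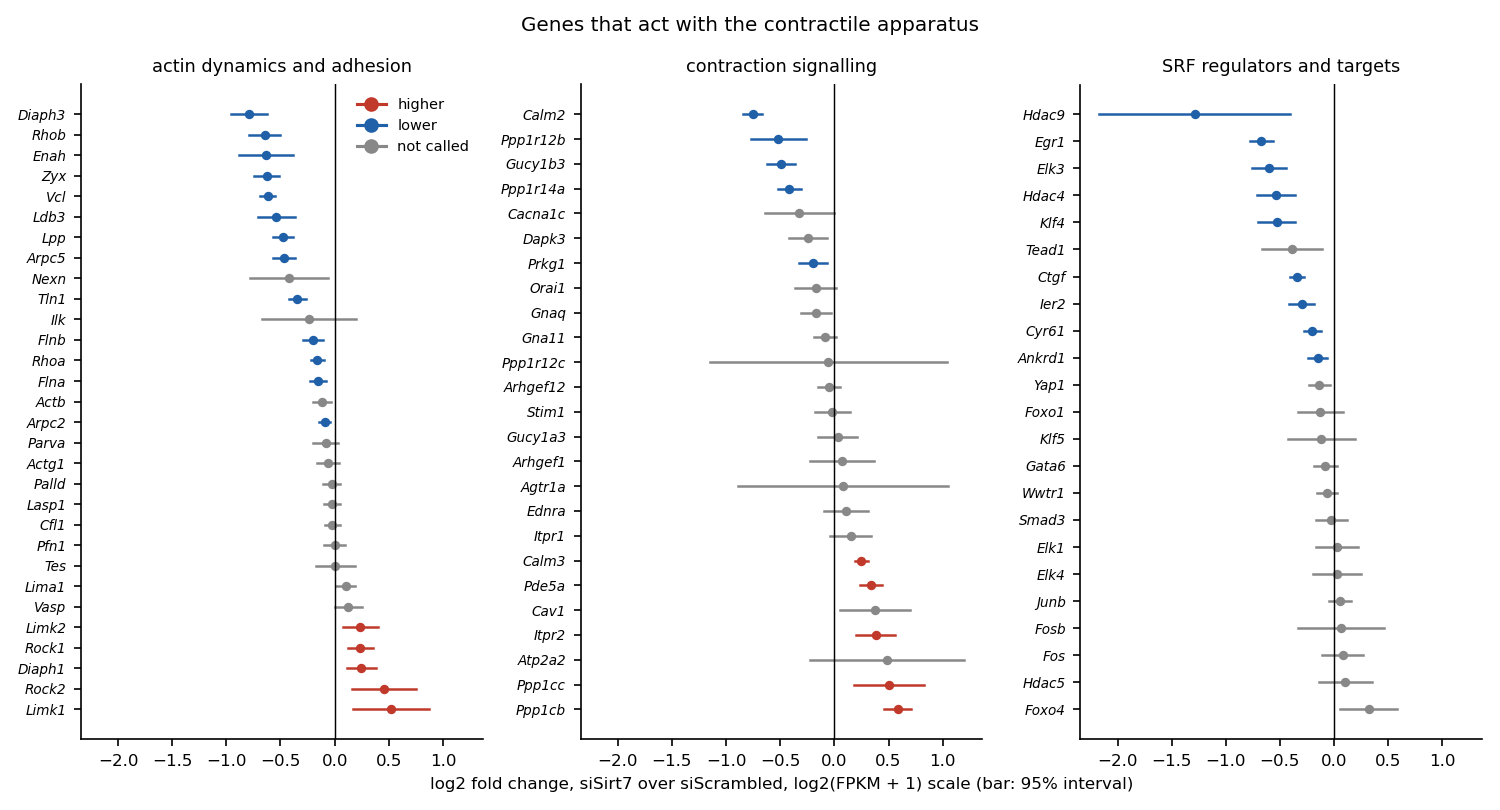
Log2 fold change, siSirt7 over siScrambled, of genes on the 3 further lists, with 95% intervals (bars) and colour for the limma call. The first panel holds 13 lower and 5 higher genes, the second 5 and 5, and the third 9 and 0.

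Markers of other cell types beside these results were as follows. Of 7 macrophage markers, 4 had rows (Ptprc, Adgre1 and Itgam had none), and 2 were tested and not called. The 4 summed to 20.9 to 23.5 FPKM in siSirt7 libraries and 18.7 to 22.2 FPKM in siScrambled libraries, most of it Lyz2. All 7 adventitial fibroblast markers had rows and 5 were tested, of which 1 was higher and 2 lower. The 7 summed to 475.9 to 507.5 FPKM in siSirt7 libraries and 447.6 to 463.1 FPKM in siScrambled libraries, most of it Dcn and Lum. All 6 mesothelial markers had rows and 4 were tested, of which 1 was lower. The 6 summed to 86.0 to 93.8 FPKM in siSirt7 libraries and 96.5 to 105.2 FPKM in siScrambled libraries. The 5 pericyte markers, all tested, held 2 lower and 2 higher genes. They summed to 199.2 to 237.8 FPKM in siSirt7 libraries and 274.6 to 286.1 FPKM in siScrambled libraries, most of it Rgs5. Over all tested genes, 12.5% were lower and 12.7% higher. The part of these cell types in the changes of contractile genes was not tested.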

How the data were processed

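The authors deposited FPKM, 1 value for each of 23242 protein-coding transcripts in each of 6 mRNA libraries. HISAT2 served as aligner and GRCm38 (mm10) as genome build, per the submitters' processing notes. The sources used here give neither its version, nor the FPKM program, nor its handling of shared reads. Every listed transcript has a group mean of at least 0.5 FPKM in a group, so genes low in both were not analysed here. The values held no steps of whole reads, so depth and counting error are unknown.

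Gene values are sums over listed transcripts. Those averaging at least 1 FPKM (10854) were tested on log2(FPKM + 1) in limma 3.58.1 under R 4.3.3, with its trend and robust options and Benjamini-Hochberg adjustment over all of them. Transcripts were tested alike. Unequal transcript change was tested with limma's diffSplice, as planned, and, since diffSplice gave false calls on simulated data, also with limma on log ratios, and is stated only where both call. The log ratio test found none of the changes simulated. Family shares were compared by an exact two-sided permutation test. Plots were drawn with matplotlib 3.10.9, and tables were made with pandas 2.3.3 and scipy 1.17.1 under Python 3.11.15. Gene coordinates are those of the deposited table.

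The members, lists and sequence words were chosen with earlier results of these data known. One gene of the contraction signalling list is not reported here and is left out of its counts. Named in full were the 8 largest falls and all rises among called members, smooth muscle markers, regulators, the most abundant uncalled members, up to 4 called genes of each further list, and transcripts of the members with the smallest diffSplice p and of Tpm1, Cald1, Myh11, Mylk and Smtn. Alternatives were median-of-ratios and quantile scaling, other filters and pseudocounts, limma without the trend and robust options, a replicate block, the most abundant transcript and each library left out.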

Additional observations from a re-analysis of the deposited data

How the results depend on the processing

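Of the 21 called members, 9 were called under all 15 alternatives (Cnn1, Fhl1, Tnnt2, Tagln2, Tpm3, Pdlim3, Tagln, Tpm1 and Myl9), and none of the 21 changed direction. Of the 22 members not called, 8 were called under at least 1 alternative and 9 changed sign. Single libraries left out gave 3 to 7 higher members, 1 to 2 higher genes of actin dynamics, 3 to 5 lower genes of contraction signalling and 900 to 1111 lower genes over all, the lowest without siScrambled 2. They gave 391 to 476 higher and 325 to 453 lower transcripts, of which members made up 1 to 3 higher and 8 to 11 lower. Transcript use by diffSplice gave 182 to 293 transcripts, 0 to 5 of them members. Without the trend and robust options, 2 members were higher. At a mean of at least 5 FPKM, diffSplice called 76 transcripts. The log ratio test called 20, with 0 of members (686 of all tested and 15 of members at an unadjusted p under 0.05). Allowing 1 G or C in the CArG core gave 12 members with a box in place of 6. Members with neither 3' word held 5 higher and 10 lower genes.

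By the most abundant transcript alone, the share difference was 8.12 points for Myh9 (6.37 by summed genes), -7.47 for Myh10 (-5.68), -6.50 for Tpm1 with Tpm2 (-7.20), -6.28 for Tpm1 (-8.63), 8.43 for Actn1 (1.64) and 1.78 for Myl9, whose sign turned (-2.42). Log2 fold changes of uncalled members that turned were Sorbs3 (0.002 with median-of-ratios scaling), Des (-0.022) and Csrp1 (-0.042) with quantile normalization, and Tpm2 (-0.010), Csrp1 (-0.015) and Sorbs2 (0.46) by the most abundant transcript. With single libraries left out, the uncalled Des ranged -0.036 to 0.063, Csrp1 -0.009 to 0.053, Tpm2 -0.009 to 0.020, Sorbs3 -0.071 to 0.087, Acta2 -0.074 to 0.006, Synpo2 -0.027 to 0.202, Csrp2 -0.175 to 0.073 and Pdlim7 -0.042 to 0.189. The cause of these moves was not tested.

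The samples share only a replicate number: deviations of same-numbered samples correlated at 0.007, 0.033 and -0.015. A fit with a term for the replicate number (replicate block) called 14 members lower and 4 higher, 2 genes of actin dynamics higher, 104 transcripts higher and 84 lower (of members, 0 and 2), and 1 member transcript by diffSplice. Read depth, which limits the scarce members such as Pdlim3, Synpo2 and Casq2, is unknown.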

Other observations

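Markers of cells that lie near smooth muscle in the vessel wall moved both ways. Among 5 pericyte markers, Rgs5, a G protein regulator, averaged 191 ± 18.4 FPKM in siSirt7 cells and 256.0 ± 5.78 FPKM in siScrambled cells (SD, n = 3 each), and the proteoglycan gene Cspg4 was also lower (limma adjusted p = 0.00741 and 0.0169). Kcnj8 and Abcc9, which encode the subunits of the vascular ATP-sensitive potassium channel, were both higher (log2 fold change 0.57 and 0.36, limma adjusted p = 0.00822 and 0.0222), and Notch3 was not called (limma adjusted p = 0.617). Among fibroblast markers, the receptor gene Pdgfra averaged 19.1 ± 2.01 FPKM in siSirt7 cells and 25.3 ± 0.84 FPKM in siScrambled cells, and Dpt was also lower (limma adjusted p = 0.016 and 0.0485), while Lum was higher (log2 fold change 0.18, limma adjusted p = 0.048). The mesothelial marker Upk3b averaged 33.2 ± 0.94 FPKM in siSirt7 cells and 38.2 ± 0.78 FPKM in siScrambled cells (limma adjusted p = 0.0147). Genes beyond the rule for named genes were named here after their values were seen.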
